A study of Aedes aegypti with 12 samples.

Results

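The torso locus of the yellow fever mosquito *Aedes aegypti* holds 3 annotated genes, and all 3 were counted in the deposited tables, out of 19256 genes in all. The first is LOC5574477, described as the tyrosine-protein kinase receptor torso. The others, LOC5567477 and LOC5567497, lie within its span. The locus was selected on the measured counts and TPM of these genes (TPM is a level scaled for gene length and library size) in both genotypes and tissues, so the differences of the 3 genes between genotypes and between tissues are given below as descriptions, without a test.

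RNA was sequenced from fat body and brain in 12 libraries, 3 in each of 4 groups: fat body of AaegGr34 mutants, fat body of wild type, brain of AaegGr34 mutants and brain of wild type. The wild type was the Liverpool strain. AaegGr34 is a gustatory receptor gene; the sources used here do not give the site of the mutation, or the sex, age and feeding state of the animals sampled. All mosquitoes were kept with 10% sucrose always at hand, and colonies were fed bovine or horse blood through a membrane. The libraries are labelled as biological replicates with nothing on how animals were pooled, so the p-values below measure the spread between these libraries.

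Torso is a receptor tyrosine kinase of insects. In *Drosophila* it is activated at the poles of the embryo by Trunk, with the help of Torso-like, and in the larval prothoracic gland by prothoracicotropic hormone (PTTH), a brain neuropeptide. The signal runs through the adaptor Drk, the exchange factor Sos, Ras, Raf, MEK and ERK; at the embryo poles it relieves repression of target genes, and in the gland it drives synthesis of the moulting hormone ecdysone by the Halloween enzymes. LOC5567477 is described as heparan-alpha-glucosaminide N-acetyltransferase, in humans a lysosomal membrane enzyme that takes part in the breakdown of heparan sulfate. LOC5567497 is uncharacterized.

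Each library held between 18.5 M and 31.3 M counts. The AaegGr34 gene itself, LOC5570009, had 2, 11 and 2 counts in mutant fat body, against 2, 4 and 16 in wild-type fat body, and 6, 11 and 28 counts in mutant brain, against 24, 22 and 7 in wild-type brain. The genotypes overlapped in both tissues, so its level does not check the genotype labels. Markers were compared between the wild-type tissues, where 64.7% of all genes tested were called, 32.0% as higher and 32.7% as lower in fat body: with edgeR's quasi-likelihood test and an adjusted p under 0.05, 12 of 12 tested photoreceptor genes and 6 of 7 neuron genes were higher in brain, the other neuron gene being higher in fat body. Of 9 tested fat body marker genes, 4 were called higher in fat body and 0 lower (median log2 fold change 1.4), so these markers check the fat body label less firmly. Fat body was also the higher tissue for 8 of 9 tested germline and ovary genes (median 6.08).

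Torso spans 214566733 to 214765147 on the minus strand of chromosome 2 (AaegL5.0), a stretch of 198.4 kb with 20 exons and 7 RefSeq transcripts. LOC5567477 lies on the same strand at 214682227 to 214700780, has 6 exons in 18.6 kb, and occupies 9.35% of the torso span, between 64.4 and 82.9 kb from its 5′ end. LOC5567497 lies on the opposite strand at 214623008 to 214682165, has 4 exons in 59.2 kb, and takes up 29.8% of the span, between 83.0 and 142.1 kb from the 5′ end. The nested genes face each other tail to tail with 61 bp between their ends. No other gene of the tables (0) overlapped torso. The length over which torso was counted was 2.36 times that of LOC5567477, and that of LOC5567497 was 0.731 times that of LOC5567477, as the ratio of counts to TPM gives it.

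**Figure D1:**
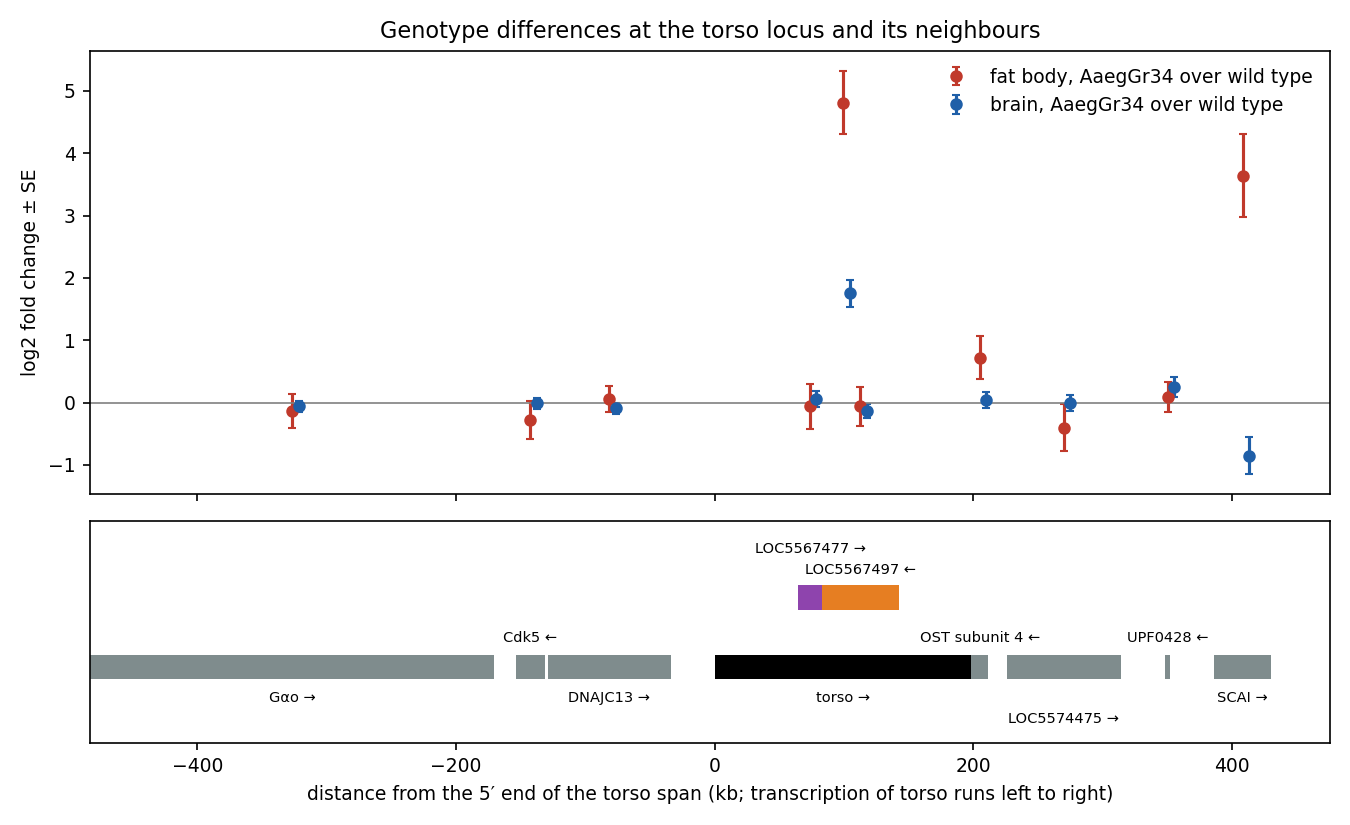
Upper panel: log2 fold change of AaegGr34 mutant over wild type with its standard error (SE) for the 3 genes of the torso locus and the 7 of 10 neighbours that could be fitted, in fat body (red) and brain (blue; points moved 5 kb right so that both show). Lower panel: gene spans by distance in kb from the 5′ end of torso, with arrows for the direction of transcription; torso stands at 4.81 in fat body and 1.75 in brain, the genes inside its span near 0, and SCAI, at the far right, at 3.64 in fat body and -0.85 in brain.

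In fat body torso was far higher in mutant than in wild-type libraries. It had 168, 339 and 343 TPM in mutant fat body, against 3.28, 13.5 and 18.5 TPM in wild-type fat body. The groups did not overlap, and the lowest mutant library stood 9.05 times above the highest wild-type library. Across all genes tested in fat body, 4.53% were higher in the mutant with no overlap; as the locus was chosen for this contrast, nothing is read from that. In bulk tissue, more cells of a type that express torso and more torso RNA per cell cannot be told apart.

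These levels rest on many reads. Torso was given 12654.2, 23084.42 and 20450 counts in mutant fat body, against 275.5, 848.5 and 1142 counts in wild-type fat body. The group means were 283 ± 100 TPM in mutant and 11.8 ± 7.78 TPM in wild-type fat body (SD, n = 3 each), a ratio of 24.1. The fit across all genes gave a log2 fold change of 4.81 (SE 0.51), a 28.1-fold difference, the rise ranked 27 of 11558 genes tested. The authors' deposited table gives 4.82 (SE 0.442) for the same comparison, from the same libraries.

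How far torso varied between libraries of one group depended on the scale. In TPM the highest library was 2.05 times the lowest in mutant fat body and 5.66 times in wild-type fat body, against 1.87 times in mutant brain and 1.14 times in wild-type brain. In CPM (counts scaled to library size) after TMM scaling (trimmed mean of M-values) these ratios were 1.56 in mutant and 2.80 in wild-type fat body, against 1.74 in mutant and 1.13 in wild-type brain. In wild type the spread was thus wider in fat body on both scales, while in the mutant the order of the tissues turned round. Which mutant fat body library was lowest differed too: replicate 1 in TPM, and replicate 2 in CPM, with 894.9, 790.5 and 1236 CPM in the 3 replicates. Wild-type fat body replicate 1 was the lowest of its group on both scales.

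Among all 19256 genes ordered by TPM, torso stood at rank 429, 293 and 277 in mutant fat body, against 7335, 5300 and 5061 in wild-type fat body. It took 0.0609%, 0.0968% and 0.111% of all counts in mutant fat body, against 0.00113%, 0.00419% and 0.00549% in wild-type fat body. Torso was thus an abundant transcript of each mutant fat body library and a middling one of each wild-type library.

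In brain torso was also higher in the mutant, by a smaller factor. It had 18.4, 22.4 and 12.0 TPM in mutant brain, against 4.85, 5.51 and 5.08 TPM in wild-type brain. The groups again did not overlap, the lowest mutant library being 2.17 times the highest wild-type library; 14.6% of all genes tested in brain were higher in the mutant with no overlap. The counts behind these levels were 887, 1217.33 and 652.33 in mutant brain, against 376.95, 306.75 and 271.5 in wild-type brain.

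The mean level of torso was 17.6 ± 5.24 TPM in mutant and 5.15 ± 0.334 TPM in wild-type brain (SD, n = 3 each), a ratio of 3.41. The fitted log2 fold change was 1.75 (SE 0.21), the rise ranked 202 of 11848 genes tested, and the authors' deposited table gives 1.74 (SE 0.223). The genotype difference in fat body exceeded that in brain by 3.12 on the log2 scale (SE 0.50). Leaving out each of the 12 libraries in turn gave between 2.70 and 3.38.

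**Figure D2:**
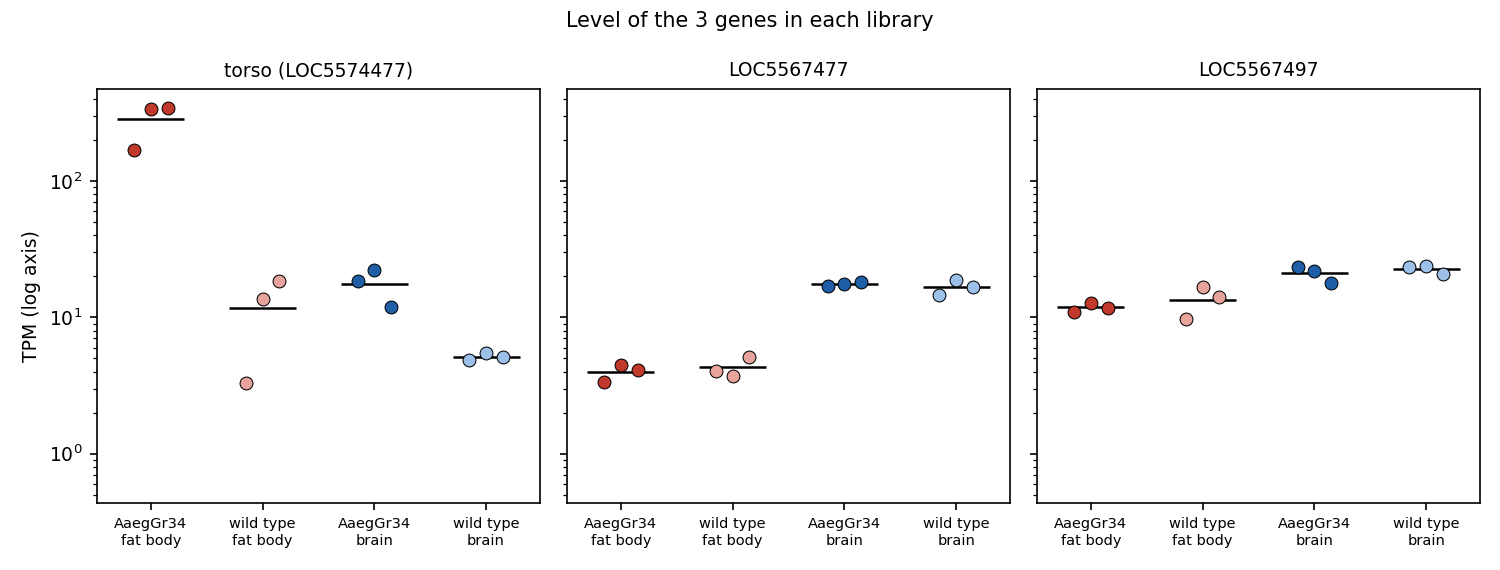
TPM of torso, LOC5567477 and LOC5567497 in each of the 12 libraries on a log axis, with points for libraries and lines for group means. Torso lies between 168 and 343 TPM in the 3 mutant fat body libraries and at or under 22.4 TPM in the other 9, while the nested genes overlap between genotypes in both tissues.

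The 2 genes inside the torso span did not follow it. LOC5567477 had 3.37, 4.50 and 4.08 TPM in mutant fat body, against 4.04, 3.72 and 5.12 TPM in wild-type fat body. In brain it had 16.8, 17.4 and 18.1 TPM in the mutant, against 14.6, 18.6 and 16.7 TPM in wild type. The genotypes overlapped in each tissue. The log2 fold changes were -0.06 (SE 0.36) in fat body and 0.06 (SE 0.13) in brain.

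LOC5567497, on the strand opposite to torso, had 10.9, 12.7 and 11.8 TPM in mutant fat body, against 9.70, 16.6 and 14.1 TPM in wild-type fat body. In brain it had 23.4, 21.9 and 17.9 TPM in the mutant, against 23.4, 23.7 and 20.8 TPM in wild type. Here too the genotypes overlapped in each tissue. The log2 fold changes were -0.06 (SE 0.31) in fat body and -0.13 (SE 0.11) in brain. The SEs leave room for modest differences of either sign in fat body.

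The nested genes bear on how reads of the locus were assigned, since the library kit is not described as keeping strand, and the sources do not say how strand and shared reads were treated. The nested genes together had 361.5, 398 and 320 counts in mutant fat body, against 396.5, 422 and 402.5 counts in wild-type fat body. Every mutant library was below or within the wild-type range, while torso had at least 12654.2 counts in each mutant library and at most 1142 in wild type. The nested counts came to 2.86%, 1.72% and 1.56% of the torso counts in mutant fat body.

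Torso took 97.2%, 98.3% and 98.5% of the counts of the locus in mutant fat body, against 41.0%, 66.8% and 73.9% in wild-type fat body. In brain it took 56.1%, 61.2% and 47.6% in the mutant, against 26.6%, 26.6% and 27.4% in wild type. The share was higher in the mutant with no overlap in both tissues. As it is built from the torso counts on which the locus was chosen, nothing is read from that. On the TPM scale, which allows for length, torso stood below LOC5567497 in all 3 wild-type brain libraries, at 0.207, 0.232 and 0.244 of its level, and above it in all 3 mutant fat body libraries, at 15.4, 26.6 and 29.2 times its level.

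Some counts of the locus were not whole numbers, as splitting a read among genes or places would give. Within a tolerance of 1e-06, torso was whole in 3 of 12 libraries, a multiple of 0.5 in another 3 and had some other fraction in 6. LOC5567477 was whole in 5 and ended in 0.5 in 7, and LOC5567497 was whole in 9 and ended in 0.5 in 3. How many whole reads the genes share cannot be read from these fractions.

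**Figure D3:**
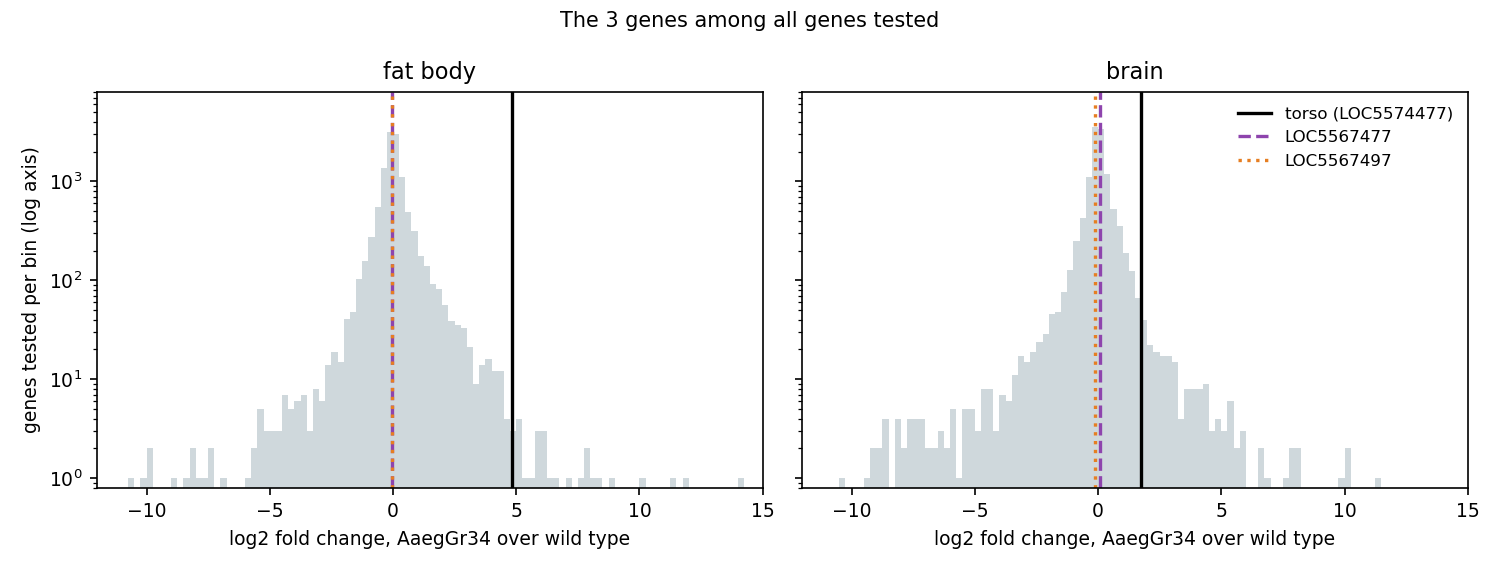
Number of genes (log axis) in bins of log2 fold change, AaegGr34 mutant over wild type, for the 11558 genes tested in fat body and the 11848 tested in brain, with the 3 genes of the locus as lines. Torso lies at 4.81 in fat body and 1.75 in brain, and LOC5567477 and LOC5567497 between -0.13 and 0.06.

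The wild-type libraries alone, which say nothing of genotype, show how the 3 genes were spread over the tissues. Torso had 3.28, 13.5 and 18.5 TPM in wild-type fat body and 4.85, 5.51 and 5.08 TPM in wild-type brain. Replicate 1 of fat body was below all 3 brain libraries, so the tissues overlapped on this scale. With TMM scaling the log2 fold change of fat body over brain was 1.48 (SE 0.38). With limma it was 0.80 (SE 0.57) on log2(TPM + 1), where the median over all genes was -0.12 against 0.0235 with TMM scaling, and 0.86 (SE 0.63) on log2(TPM + 0.1), with a median of -0.34.

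Between the wild-type tissues LOC5567477 was lower in fat body, with 4.30 ± 0.732 TPM there and 16.6 ± 2.03 TPM in brain (SD, n = 3 each). All 3 fat body libraries were below all 3 brain libraries; 43.6% of the genes tested were lower in fat body in this way, and as tissue entered the selection nothing is read from that. The log2 fold change was -1.43 (SE 0.27).

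LOC5567497 averaged 13.5 ± 3.50 TPM in wild-type fat body and 22.7 ± 1.59 TPM in wild-type brain (SD, n = 3 each), with no overlap. After TMM scaling the log2 fold change was -0.28 (SE 0.21), and with limma on log2(TPM + 1) it was -0.74 (SE 0.26). The fold changes of torso and LOC5567477 between the wild-type tissues thus had opposite signs.

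Ordered by mean TPM, torso ran from 5.15 in wild-type brain through 11.8 in wild-type fat body and 17.6 in mutant brain to 283 in mutant fat body. Wild-type fat body overlapped both wild-type and mutant brain, so only the top group stood clear of all others. Mutant fat body was 16.1 times mutant brain. For LOC5567477 the order was mutant fat body, wild-type fat body, wild-type brain and mutant brain, with overlap within each tissue and none between tissues.

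Torso was compared by TPM with 19 other genes described as receptor tyrosine kinases, 2 of which also carry the name torso. It ranked 1 of these 20 in all 3 mutant fat body libraries; the next was LOC5563777, a homologue of the VEGF receptor, with 11.1, 19.0 and 19.8 TPM. The other 19 receptors summed to 40.6, 94.5 and 71.7 TPM in mutant fat body, each sum below torso alone in the same library. In wild-type fat body torso ranked 5, 2 and 1. In mutant brain it ranked 4, 2 and 7, against 12, 12 and 11 in wild-type brain.

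A list of 51 genes gave the signalling route around torso: its ligands and Torso-like, other genes described as torso, the Ras-ERK cascade, nuclear factors, ecdysteroid enzymes and other receptor tyrosine kinases. In fat body 46 of them were tested and 0 were called by edgeR (adjusted p under 0.05), against 0.234% of all genes tested; 3 had an unadjusted p under 0.05, DESeq2 called 1 and limma on TPM called 0. Their median log2 fold change was -0.06, and that of all genes was -0.00365. In brain 46 were tested, 2 were higher and 1 was lower, 6.52% of them against 8.86% of all genes tested, with a median of -0.11 against 0.00607 for all genes.

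Neither ligand was called between genotypes, and the SEs in fat body leave room for sizeable differences. PTTH, LOC110677702, averaged 0.551 ± 0.503 TPM in mutant and 1.71 ± 1.01 TPM in wild-type fat body (SD, n = 3 each; log2 fold change -1.49, SE 0.55, edgeR adjusted p = 0.536). These levels rest on few reads, with 3.5, 15.5 and 3.5 counts in mutant and 10, 25.5 and 31.5 in wild-type fat body. In brain it averaged 19.2 ± 2.95 TPM in the mutant and 16.5 ± 2.40 TPM in wild type (log2 fold change 0.20, SE 0.18, edgeR adjusted p = 0.564). PTTH thus stood higher in brain in both genotypes, and between the wild-type tissues it was lower in fat body, with a log2 fold change of -2.90 (edgeR adjusted p = 0.000477). Its genotype difference in fat body minus that in brain was -1.64 (SE 0.51, edgeR adjusted p = 0.274).

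Trunk, LOC5579958, the embryonic ligand, had the opposite tissue pattern. It averaged 55.6 ± 38.4 TPM in mutant and 60.5 ± 48.6 TPM in wild-type fat body (SD, n = 3 each), and 2.17 and 2.79 TPM in mutant and wild-type brain. By replicate, trunk had 35.5, 99.9 and 31.4 TPM in mutant and 9.82, 64.9 and 107 TPM in wild-type fat body. The share of ovary and germline markers, given further on, rose in the same replicate order in wild type. In the mutant both were highest in replicate 2, and a link was not tested. Between the wild-type tissues trunk was higher in fat body (log2 fold change 4.67, SE 0.72, edgeR adjusted p = 0.00114). Its genotype log2 fold changes were 0.07 (SE 0.58) in fat body and -0.38 (SE 0.53) in brain. Torso-like, LOC5573380, had -0.41 (SE 0.50) in fat body and -0.32 (SE 0.14) in brain, and was not called in either.

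Other genes carry the description torso. LOC5566523 averaged 4.12 ± 2.91 TPM in mutant and 4.06 ± 2.33 TPM in wild-type fat body (SD, n = 3 each), a log2 fold change of 0.06 (SE 0.41, edgeR adjusted p = 1). In brain it averaged 4.25 TPM in the mutant and 5.25 TPM in wild type, a log2 fold change of -0.33 (SE 0.12, edgeR adjusted p = 0.161). LOC5574123 had at most 1 count in any library. Of the genes so described, LOC5574477 was the one with the large genotype difference in these libraries; the difference between its fold change and theirs was not tested.

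The cascade below the receptor held 16 genes, of which 0 were called in fat body, where only 0.234% of all genes tested were called. There the log2 fold changes were -0.03 (SE 0.24) for the adaptor Drk, 0.08 (SE 0.27) for Ras, -0.18 (SE 0.32) for Raf, -0.02 (SE 0.23) for MEK and -0.01 (SE 0.40) for ERK. Sprouty, a feedback inhibitor of receptor kinase signalling that is itself induced by it in *Drosophila*, had -0.54 (SE 0.28, edgeR adjusted p = 0.787), and the ERK-responsive activator pointed had 0.62 (SE 0.33, edgeR adjusted p = 0.809). In brain the same 5 core genes lay between -0.33 for ERK and -0.04 for Ras, none of them called.

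In brain 1 cascade gene was called, 6.25% of the 16 against 8.86% of all genes tested. Sos, LOC5568816, the Ras exchange factor, fell to 5.51 ± 0.963 TPM in mutant brain, against 11.5 ± 1.57 TPM in wild-type brain (SD, n = 3 each). By replicate it had 5.67, 4.48 and 6.38 TPM in mutant brain, against 10.3, 13.2 and 10.8 TPM in wild-type brain. The log2 fold change was -1.07 (SE 0.16, edgeR adjusted p = 0.00865), and without mutant brain replicate 1 it was -1.03 (adjusted p = 0.052). Over all 12 alternatives its adjusted p ran from 2.4e-07 to 0.052, with 11 calls. In fat body Sos had -0.10 (SE 0.47), and its difference between tissues was not called (1.00, SE 0.53, edgeR adjusted p = 0.666).

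The ecdysteroid enzymes held the 2 genes called higher in mutant brain. Shadow, LOC5575470, a mitochondrial P450 late in ecdysone synthesis, averaged 21.3 ± 3.06 TPM in mutant and 12.3 ± 3.56 TPM in wild-type brain (SD, n = 3 each; log2 fold change 0.80, SE 0.20, edgeR adjusted p = 0.0498). LOC110677901, described like shade, the P450 that turns ecdysone into its active hydroxylated form, averaged 0.454 ± 0.0904 TPM in mutant and 0.138 ± 0.0632 TPM in wild-type brain (log2 fold change 1.78, SE 0.40, edgeR adjusted p = 0.0365). The levels of LOC110677901 rest on few reads, with 19.5, 19.5 and 28.5 counts in mutant and 8.5, 11 and 4.5 in wild-type brain. Both calls, of shadow and of LOC110677901, were lost whichever of the 6 brain libraries was left out. The edgeR adjusted p then lay between 0.0618 and 0.151 for shadow and between 0.0637 and 0.14 for LOC110677901.

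In fat body the gene described as shade itself, LOC5574128, averaged 0.975 ± 0.486 TPM in the mutant and 5.22 ± 1.44 TPM in wild type (SD, n = 3 each). The groups did not overlap, but nothing is read from that, as shade was singled out after its values were seen. It was not called by edgeR (log2 fold change -2.56, SE 0.54, adjusted p = 0.141) and was called by DESeq2 (-2.54, adjusted p = 0.000414), the sole call among 12 alternatives (adjusted p up to 0.328). The shade-like LOC110677901 had 0.26 (SE 0.47) in fat body.

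**Figure D4:**
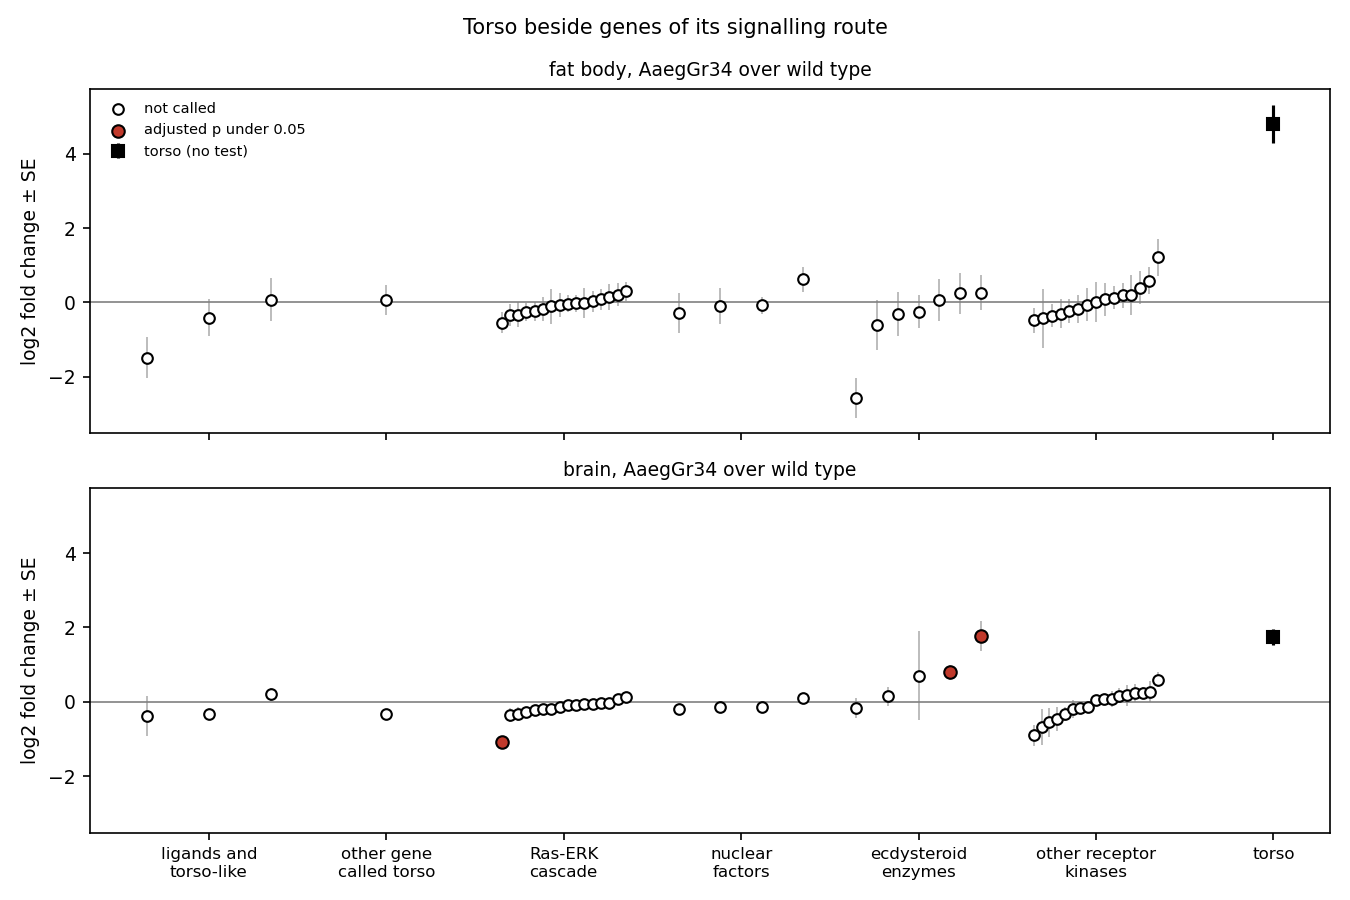
Log2 fold change with SE, AaegGr34 mutant over wild type, for each tested gene of the signalling lists in fat body (upper panel) and brain (lower panel), with torso as a black square. Open points did not pass the test, and the 3 filled points in brain are Sos at -1.07, shadow at 0.80 and LOC110677901 at 1.78; in fat body 0 genes passed and torso stands apart at 4.81.

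Between the wild-type tissues, 29 of 47 tested genes of the list passed, 61.7% against 64.7% of all genes. Of these 8 were higher and 21 lower in fat body, where 32.0% of all genes were higher and 32.7% lower. With limma on log2(TPM + 0.1) 5 were higher and 24 lower. Of the 16 cascade genes, 9 were lower and 0 higher in fat body, among them Raf at -1.80 (SE 0.28, edgeR adjusted p = 0.0011) and MEK at -1.32 (SE 0.21, edgeR adjusted p = 0.00122). Drk had -0.73 and Ras -0.74, both called, and ERK -0.89 (edgeR adjusted p = 0.0641). Of 6 tested ecdysteroid enzymes 5 were higher in fat body, the shade genes most, at 5.60 and 5.89. Spook (LOC5572380) had 0.669, 3.86 and 10.2 TPM in wild-type fat body, and phantom (LOC110674175) had 1.05, 6.10 and 8.87 TPM. Both overlapped wild-type brain in TPM, and limma called neither at either pseudocount. The 17 other receptor kinases counted here had 2 higher, the insulin-like receptor (1.69) and Cad96Ca (2.28), and 9 lower. The insulin-like receptor overlapped between the tissues in TPM.

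The 5 nearest annotated genes on each side of torso were followed to see how far along the chromosome the difference reached. Of these 10 genes 7 could be tested, and 0 were called in fat body or in brain by edgeR. Of all genes tested, 0.234% were called in fat body and 8.86% in brain. With so few genes these counts cannot show how far the difference reached. In each tissue 1 of the 7 neighbours, SCAI, had an unadjusted p under 0.05 with edgeR. DESeq2 called 1 in fat body and 0 in brain, against 2.77% and 11.7% of all genes. With limma on log2(TPM + 1) 0 were called in both. LOC110676370, a subunit of the oligosaccharyltransferase that glycosylates proteins, ends 69 bp from the 3′ end of torso. It had 58.7, 69.1 and 74.1 TPM in mutant fat body, against 39.1, 38.2 and 53.2 TPM in wild-type fat body, with no overlap (log2 fold change 0.72, SE 0.34, edgeR adjusted p = 0.742). In brain it had 0.04. In fat body 4.53% of all genes tested were higher in the mutant with no overlap.

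SCAI, LOC5574473, named for a human regulator of the actin-linked cofactor MAL, lies 187.9 kb beyond the 3′ end of torso. It had 0.904, 10.2 and 3.90 TPM in mutant fat body, against 0.166, 0.568 and 0.352 TPM in wild-type fat body. The groups did not overlap, and 4.53% of all genes tested were likewise higher in the mutant with no overlap. The log2 fold change of SCAI was 3.64 (SE 0.66, edgeR adjusted p = 0.101). DESeq2 gave an adjusted p of 4.22e-06. Over 12 alternatives, of which 2 called SCAI, the adjusted p ran up to 0.641. In brain it had 2.99, 1.37 and 2.39 TPM in the mutant, against 3.09, 5.04 and 3.86 TPM in wild type (log2 fold change -0.85, SE 0.29, edgeR adjusted p = 0.133). The remaining 5 neighbours had log2 fold changes between -0.40 and 0.25 in both tissues.

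The genes most like torso were those with the highest Pearson correlation of log2 CPM (0.5 added) over the 12 libraries, among 12856 genes; libraries of one group share genotype and tissue, so r describes these libraries. The first was trypsin delta, LOC5567919 (r = 0.988), with 0.564, 1.68 and 1.21 TPM in mutant fat body, against 0, 0.208 and 0.372 TPM in wild-type fat body, and listed at 0 in all wild-type brain libraries. The second was LOC5578908, a putative fatty acyl-CoA reductase (r = 0.962). The uncharacterized LOC110676251 and LOC110676252 (r = 0.96 for both) had near-equal values in every library and may share reads, and LOC5566759 had r = 0.956. All 5 averaged at most 5.23 TPM in any group. The nested genes had r of -0.60 (LOC5567477) and -0.40 (LOC5567497) with torso.

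Markers of other tissues moved within the fat body groups. The 18 ovary and germline markers took 0.0942%, 0.423% and 0.148% of counts in mutant fat body, where torso had 168, 339 and 343 TPM. They took 0.0683%, 0.257% and 0.346% in wild-type fat body, where torso had 3.28, 13.5 and 18.5 TPM in the same order. In wild type the marker share rose in the same replicate order as torso. In the mutant the share was highest in replicate 2 and torso TPM in replicate 3. Between genotypes the ranges of the marker share overlapped. From 3 to 5 of the 18 genes were at 0 in the mutant and 4 to 8 in wild-type fat body. In brain the share was 0.0185% to 0.0203% in all 6 libraries. The 13 photoreceptor genes took 20.4%, 22.3% and 21.2% of counts in mutant brain, against 26.3%, 22.6% and 27.1% in wild-type brain. Every mutant library was thus below every wild-type library. The part of this share in the genotype differences in brain was not tested.

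The 96 genes matched by description as gut proteases took 0.0206%, 0.529% and 0.999% of counts in mutant fat body, against 0.0729%, 0.0188% and 0.0226% in wild-type fat body. Of them 38 to 63 were at 0 in the mutant and 41 to 48 in wild type. Only 19 of the 96 could be tested between the wild-type tissues. There edgeR called 6 with brain as the higher tissue and 10 with fat body (adjusted p under 0.05). As the calls went both ways, the share of this list is not read as an amount of gut tissue. Within the mutant the share of these proteases rose in the same replicate order as torso in TPM (168, 339 and 343). In CPM torso had 894.9, 790.5 and 1236 there, so this order, and replicate 1 as the lowest, hold in TPM only. Within wild type, replicate 1 was the highest in the share of these proteases and the lowest in torso. Ribosomal protein genes took 34.7%, 20.7% and 26.6% in mutant and 31.5%, 24.7% and 23.0% in wild-type fat body, so replicate 1 of each genotype, the lowest in torso TPM, was the highest in ribosomal share. The part of these shares in the genotype difference of torso, or in its spread, was not tested.

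**Figure D5:**
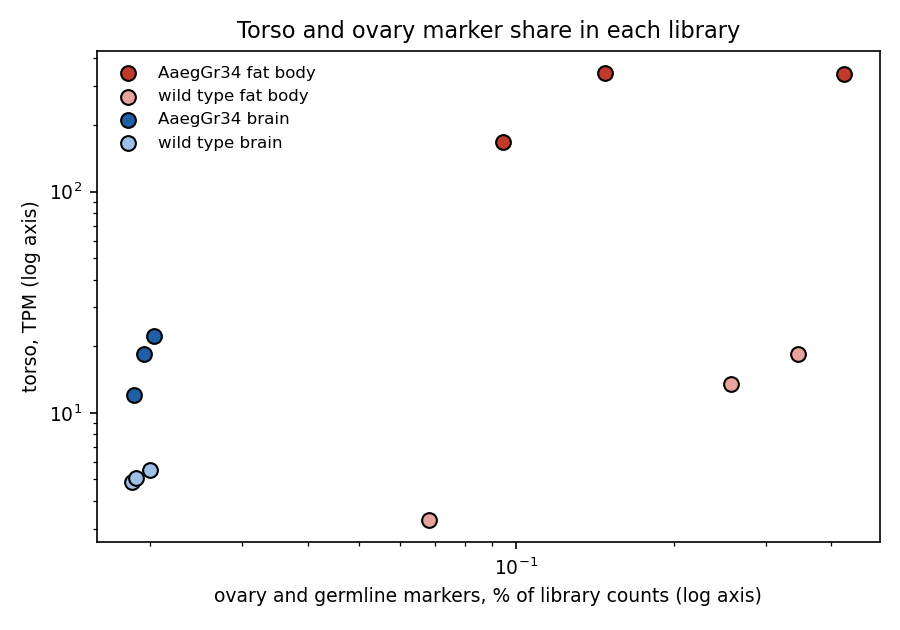
Torso TPM against the share of library counts (percent) taken by 18 ovary and germline markers, both on log axes, 1 point per library. The mutant fat body libraries, at 168 to 343 TPM, and the wild-type ones, at 3.28 to 18.5 TPM, cover overlapping marker shares of 0.0942% to 0.423% and 0.0683% to 0.346%, and all 6 brain libraries lie between 0.0185% and 0.0203%.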

How the data were processed

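Per the labels, libraries were made from polyA RNA by random priming (NEBNext Ultra II). Tools named in the submitters' processing notes are STAR, featureCounts, FastQC and DESeq2. The authors deposited estimated counts per gene, 25.4% of the values with a fraction, and TPM. Per the file headers, the DESeq2 tables deposited by the authors give for each gene the log2 fold change, a test score, p-values and the mean normalized signal; their fold changes and standard errors are quoted where named. The sources used here name no build; positions and descriptions of the 3 genes are those of the deposited tables, and the positions equal those of the RefSeq gene table for AaegL5.0.

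Counts were rounded to whole numbers. The test was edgeR's (4.0.16, R 4.3.3), with 6 libraries in each comparison (TMM scaling, filterByExpr with a count of 10 and a total of 15, robust quasi-likelihood F-test, two-sided, Benjamini-Hochberg over all genes tested, threshold 0.05). Of the 3 genes, 3 passed the filter in each comparison. The SE is the fold change divided by the square root of F. The difference between tissues was a contrast over 12 libraries. CPM use TMM-scaled library sizes. Alternatives were DESeq2 1.42.0, its size factors in edgeR, no filter, a replicate block, each library left out, and limma 3.58.1 on log2(TPM) with a pseudocount of 1 or 0.1. The fits were tested on simulated data. Replicates differed beyond counting noise (chi-square per degree of freedom 20.8 to 315).

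The genes of the locus and the gene lists, found by their descriptions, were chosen with earlier results of these data known. A test of the 3 genes between wild-type tissues had been planned; it is not given, since the locus was selected on values of both tissues. Named were the 3 genes, of each list the called members (at most 3 by adjusted p in each direction), the ligands and the core cascade, 5 neighbours on each side and the 5 most correlated genes. Shade, sprouty, pointed, the TPM leader among receptors and neighbours SCAI and LOC110676370 were singled out after their values were seen.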

Additional observations from a re-analysis of the deposited data

Results flagged for a closer look

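The genotype difference of SCAI, LOC5574473, a neighbour 187.9 kb beyond the 3′ end of torso, differed between the tissues. It was 4.52 higher in fat body than in brain on the log2 scale (SE 0.76, edgeR contrast over 12 libraries, adjusted p = 0.0352). SCAI was higher in the mutant in 3 of 3 fat body libraries, with 44, 446 and 150 counts against 9, 23 and 14 in wild type, and lower in 3 of 3 brain libraries, with 93, 48 and 84 counts in the mutant against 155, 181 and 133 in wild type. Of all 12859 genes tested for this difference 60 were called, 0.467%. The difference stayed between 3.93 and 4.87 when each of the 12 libraries was left out, an alternative chosen after seeing the data, and the call held in 1 of the 12, without mutant fat body replicate 1 (adjusted p = 0.0166; in the others up to 0.109). The difference of torso, 3.12, was not tested.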

How the results depend on the processing

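Torso kept its direction in both genotype comparisons under all 12 alternatives; without each library in turn its log2 fold change ran from 4.51 to 5.10 in fat body and from 1.51 to 1.94 in brain. LOC5567477 ran from -0.24 to 0.29 and from -0.04 to 0.13, and LOC5567497 from -0.28 to 0.15 and from -0.18 to -0.05. Between wild-type tissues the log2 fold changes without each library ran from 1.23 to 1.82 for torso, from -1.71 to -1.22 for LOC5567477 and from -0.34 to -0.12 for LOC5567497. With limma torso moved to 0.80 on log2(TPM + 1) and 0.86 on log2(TPM + 0.1), LOC5567497 to -0.74 and -0.78, and LOC5567477 to -1.93 on log2(TPM + 0.1); the cause was not tested. The signalling genes called in brain, 3, became 5 with DESeq2, 1 with limma at either pseudocount, and 0 to 1 without a library; in fat body 0 became 1 with DESeq2 and was 0 to 0 without a library. Over all genes the calls in fat body, 27, became 381 with DESeq2, 55 with no filter, 54 with the replicate block, 15 with limma on log2(TPM + 1) and 0 to 37 without a library (0 without wild-type replicate 2, mutant replicate 1 or mutant replicate 3, and 37 without wild-type replicate 1); in brain 1050 became 1730 with DESeq2 and 405 to 979 without a library. Replicate numbers were not used as pairs in the main fits. Same-numbered libraries correlated at -0.02, 0.14 and 0.23 in brain and at 0.28, 0.40 and -0.30 in fat body. Between wild-type tissues they correlated at -0.01, 0.09 and -0.04. Not every library correlated best with its own number. With 3 libraries in each group these correlations cannot settle whether the samples were paired. With the replicate block the signalling genes called were 3 in brain, 0 in fat body and 28 between tissues, torso had 1.35 between wild-type tissues, and the calls in brain over all genes were 767. Among the other named genes and the SCAI difference between tissues, 641 values under the alternatives kept their side of the threshold, 32 lost a call and 12 gained one, and no called gene changed sign. Depth did not limit torso, with at least 271.5 counts in each library; the effect of strand, and of reads shared between genes of the locus, was not tested.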
